A study of Homo sapiens with 10 samples.

Results

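The nuclear pore and nuclear transport receptor genes were taken by name: nucleoporins (NUP followed by a number), importins alpha and beta (KPNA, KPNB, IPO), transportins (TNPO), exportins (XPO, with XPO5 left out), CSE1L, the GTPase RAN, RANBP1 and RANBP2. The names were those of the RefSeq accessions that the array's probes carry. A probe that matched no single RefSeq symbol kept its array identifier as its name. On this basis 48 of the 35267 names on the array were members, measured by 64 probes, and 45 of them were bright enough to be tested. They were followed in MEG-01, an established human megakaryoblastic leukemia cell line, in 2 groups of 5 arrays. Cells of the miR-1225-3p group received 200 nM of a precursor of the microRNA miR-1225-3p by nucleofection, an electrical transfer into the cells, and cells of the scrambled group received 200 nM of a precursor of random sequence. Both groups were harvested after 24 hours, and the replicates are described as independent experiments run together. The source label of the scrambled samples reads as untreated, but their titles give transfection with the scrambled RNA, and they were used as such. Transfection reaches a part of the cells, so each value is an average over cells that took up the precursor and cells that did not.

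The nuclear pore complex is the gate of the nuclear envelope. A scaffold of Y complexes and inner rings anchors nucleoporins rich in phenylalanine and glycine, which fill the channel and let cargo through only together with a transport receptor. Importins pick up cargo in the cytoplasm and release it in the nucleus on binding RAN in its GTP form, whereas exportins bind cargo together with that form and release it outside, where RANBP1 and RANBP2 help to trigger GTP hydrolysis. Mature microRNAs act in the cytoplasm, where bases 2 to 8, the seed, pair with target transcripts and lower their level or translation.

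The mature microRNA is shown with its seed in capitals, as the sequence that separates the groups. It is taken from RefSeq (GRCh38.p14), where it lies on the minus strand at chr16:2090195-2090216 and is 22 bases long. Matches of this seed to the members' transcripts were not tested here.
hsa-miR-1225-3p: uGAGCCCCugugccgcccccag

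Each value below is the log2 of a fluorescence signal from 1 array, after normalization across the 10 arrays. Signals were well above background at 41.95% to 53.85% of spots on the miR-1225-3p arrays and at 43.09% to 61.18% on the scrambled arrays, and the number of arrays limits the precision. Along the principal component that held 69.6% of the variance, miR-1225-3p replicate 5 lay among the scrambled arrays, with a score of 56.7 against 48.7 to 79.9 for these and -133.4 to -53 for miR-1225-3p replicates 1 to 4. Whether this sample carries the right label, or took up the precursor as the others did, was not tested, and the differences over 5 against 5 arrays rest on its label as given. The calls are therefore also given without that array, while the probe pairs are given with it. Of 11 megakaryocytic markers 7 were well above background on all 10 arrays, while PF4 was so on none. Of the 9 markers tested, 4 were lower and 0 higher in miR-1225-3p transfected cells by limma, and their summed signal was 12.90 to 13.22 on the miR-1225-3p and 13.43 to 13.61 on the scrambled arrays (log2). Of 8 markers of T, B, epithelial and fibroblast cells, 2 were well above background on all 10 arrays, while MS4A1 and COL1A2 were each so on none. Of the 4 tested, CD3E, above background on 4 arrays, and EPCAM were higher and 0 were lower. The summed signal was 12.39 to 13.49 against 12.48 to 12.56. The part of these marker differences in the values below was not tested.

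In miR-1225-3p transfected cells, 8 of the 45 members tested were higher and 4 were lower than in scrambled cells (adjusted p under 0.05, limma with Benjamini-Hochberg adjustment over all 17379 genes). These 12 are 26.7% of the members, while 35.0% of all genes passed the same threshold, 17.0% higher and 18.1% lower. RANBP1, NUP35, NUP107, NUP54, NUP133, CSE1L, NUP88 and RANBP2 were higher, with log2 fold changes from 0.49 to 1.59. XPO6, TNPO3, NUP214 and IPO13 were lower, with log2 fold changes from -2.11 to -0.58. In whole tissue or cultures a lower signal can mean fewer cells with the transcript or less of it per cell, and these cannot be told apart. The members' median log2 fold change was 0.03, with 23 values above and 22 below 0, beside a median of -0.06 over all genes. For 6 members the groups did not overlap on any array, 4 with the miR-1225-3p arrays above and 2 with them below, where 12.7% of all genes were apart in this way, 7.98% above and 4.74% below. Without miR-1225-3p replicate 5 the groups did not overlap for 24 members, 15 above and 9 below, and for 46.0% of all genes.

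**Figure D1:**
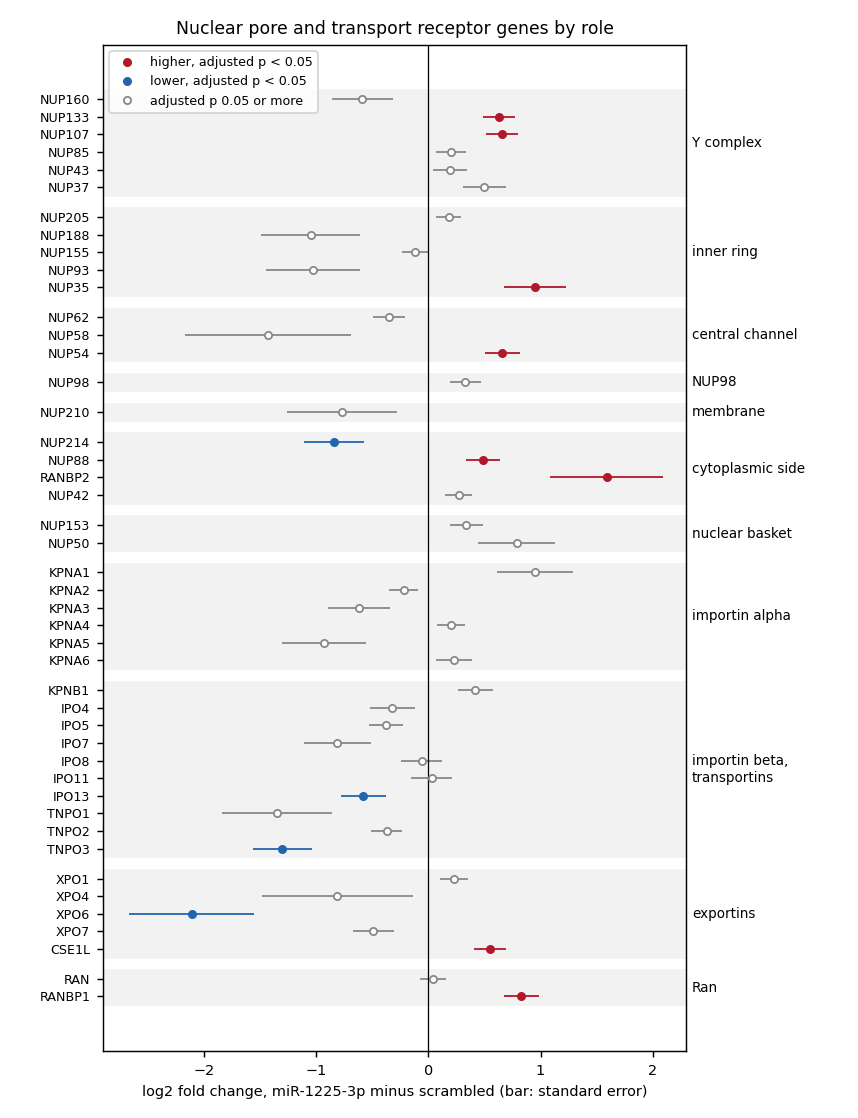
Log2 fold change of each of the 45 members tested (x axis, miR-1225-3p minus scrambled, 5 arrays a group; bars are standard errors from limma), arranged by role in the pore or in transport. Filled red points are the 8 members that were higher and filled blue points the 4 that were lower at an adjusted p under 0.05. Of the 8 red points 6 are nucleoporins, in the upper part, and 3 of the 4 blue points lie among the importins and exportins.

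Sorted by role, of 22 nucleoporins tested 6 were higher and 1 was lower, with a median log2 fold change of 0.24, and of 21 transport receptors 1 was higher and 3 were lower, with a median of -0.37. This difference between the classes was not tested. The nucleoporins' median stayed above 0 and the receptors' below 0 under each of the scalings tried, from 0.20 to 0.64 and from -0.46 to -0.04. Without miR-1225-3p replicate 5 the medians were 0.28 and -0.43. When the probes of a gene were averaged the nucleoporins' median was 0.05. The split of the calls moved more with the scaling. With quantile normalization 13 members were higher and 2 lower, with each array's 75th percentile subtracted 20 and 4, with normexp background correction 9 and 9, with the authors' normalized values 8 and 10, and with no normalization between arrays 0 and 1. The corresponding shares of all genes called were 35.4%, 41.1%, 30.2%, 39.7% and 7.28%. In the same order the nucleoporins had 9 higher and 0 lower, 13 and 1, 6 and 2, 6 and 2, and 0 and 0. The transport receptors had 3 higher and 2 lower, 5 and 3, 2 and 7, 1 and 8, and 0 and 1. Receptors called higher thus outnumbered those called lower with quantile normalization and with the percentile subtracted. The median over all genes also shifted, to 0.08 with quantile normalization, 0.16 with the percentile and -0.26 with none, so the members' medians of 0.10, 0.41 and -0.01 are to be read against these. With the percentile RANBP1, NUP107, CSE1L and NUP88 had log2 fold changes of 1.37, 1.16, 1.06 and 0.81, over 1.5 times the values given below.

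The Y complex is the building block of the outer rings of the scaffold. Of its 6 members here, 2 were higher and 0 lower, and the median log2 fold change was 0.35. NUP107, which sits in the stem of the Y, measured 12.10, 12.11, 11.82, 11.80 and 11.65 on miR-1225-3p replicates 1 to 5 and 10.97, 11.20, 11.43, 11.24 and 11.35 on scrambled replicates 1 to 5. Each miR-1225-3p array lay above each scrambled array, replicate 5 included, and the log2 fold change was 0.66 with a standard error of 0.143 (adjusted p = 0.0149). NUP133, at the end of the stem and bound to NUP107, measured 9.41, 9.33, 9.27, 9.30 and 8.93 against 8.34, 8.58, 8.61, 8.67 and 8.86. Again the groups did not overlap, by a margin of 8.93 on miR-1225-3p replicate 5 over 8.86 on scrambled replicate 5. NUP133 was higher by 0.63 on the log2 scale (standard error 0.142, adjusted p = 0.0156). The two-sided exact permutation test over arrays gave 0.00794 for NUP133 and NUP107 alike, the smallest p that 5 against 5 arrays allow. Both remained called whichever single array was left out. NUP160, in an arm of the Y, had values on the other side, with 9.12, 8.65, 8.43, 7.63 and 9.12 against 9.29, 9.32, 9.27, 9.11 and 8.90. Its spread over the miR-1225-3p arrays was wide and the groups overlapped (log2 fold change -0.59, standard error 0.271, adjusted p = 0.109). Without miR-1225-3p replicate 5 the adjusted p of NUP160 was 0.0434. NUP160 is on a list the study made of joint predicted targets of a set of platelet microRNAs that includes miR-1225-3p, and the list does not say which microRNA a prediction comes from. By its caption the list holds predicted targets that were also differentially expressed in platelets of patients with sickle cell disease. NUP37, NUP85 and NUP43 had log2 fold changes of 0.50, 0.20 and 0.19 and did not pass, with NUP37 nearest at an adjusted p of 0.0608.

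The inner ring lies at the midplane of the pore and fixes the channel nucleoporins. Of 5 members tested, NUP35, which binds the membrane and NUP93, was higher and 4 did not pass. NUP35 measured 8.79, 9.16, 9.19, 9.63 and 7.92 on the miR-1225-3p arrays and 7.92, 7.92, 8.06, 8.0 and 8.05 on the scrambled arrays. Replicates 1 to 4 were all above the scrambled arrays and replicate 5 was level with the lowest of them. The log2 fold change was 0.95 with a standard error of 0.273 (adjusted p = 0.0275), and 1.19 (adjusted p = 0.000346) without miR-1225-3p replicate 5. NUP35 lost its call when scrambled replicate 1, 2 or 4 was left out, or miR-1225-3p replicate 2, 3 or 4, with adjusted p of at most 0.0679. NUP188 and NUP93 had log2 fold changes of -1.05 and -1.03 with standard errors of 0.439 and 0.417 (adjusted p = 0.0825 and 0.0742), and NUP188 was above background on 2 miR-1225-3p arrays and 4 scrambled arrays. Both were called lower without miR-1225-3p replicate 5, at -1.42 and -1.40. NUP205 and NUP155 had log2 fold changes of 0.18 and -0.12.

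The channel is lined by a trimer of NUP62, NUP58 and NUP54, of which NUP54 alone passed the test. NUP54 measured 9.68, 9.69, 9.65, 9.62 and 9.13 on the miR-1225-3p arrays and 8.59, 8.86, 9.0, 9.0 and 9.04 on the scrambled arrays. The groups did not overlap, although miR-1225-3p replicate 5 lay far below the other miR-1225-3p arrays, and the log2 fold change was 0.66 (standard error 0.154, adjusted p = 0.0166). NUP54 remained called without any 1 of the arrays. On the log2 scale NUP62 differed by -0.35 (adjusted p = 0.0728) and NUP58 by -1.43 with a standard error of 0.742 (adjusted p = 0.146). The miR-1225-3p arrays of NUP58 ran from 5.61 to 9.96, a range that spans all of the scrambled arrays, which lay between 9.41 and 9.61. NUP98, a mobile channel nucleoporin made from a precursor that also yields the Y complex subunit NUP96, differed by 0.33 on the log2 scale (adjusted p = 0.0753). NUP210, which crosses the membrane, had -0.77 (adjusted p = 0.229) from a dim probe above background on 3 miR-1225-3p and 4 scrambled arrays. Its paralog NUP210L was above background on 1 array and was not tested.

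Filaments on the cytoplasmic side receive export complexes. Of 4 members 2 were higher and 1 was lower, and NUP214 and its partner NUP88, which bind each other at the base of the filaments, had opposite signs. NUP214 measured 7.01, 6.55, 6.48, 6.21 and 7.68 on the miR-1225-3p arrays and 7.34, 7.45, 7.79, 7.60 and 7.95 on the scrambled arrays, so that replicate 5 alone reached into the scrambled range. NUP214 differed by -0.84 on the log2 scale (standard error 0.266, adjusted p = 0.0355), and the call was kept without miR-1225-3p replicate 5 and lost without any other single array, with adjusted p up to 0.0827. With normexp it was at -0.48 (adjusted p = 0.0473). NUP88 measured 9.61, 9.40, 9.61, 9.41 and 8.98 against 9.15, 8.95, 8.86, 8.78 and 8.80. Here too replicate 5 alone overlapped. NUP88 was higher by 0.49 on the log2 scale with a standard error of 0.153 (adjusted p = 0.0337), and it was kept without miR-1225-3p replicate 5 or scrambled replicate 1 and lost without any of the other 8 arrays, with adjusted p up to 0.081.

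RANBP2, the main filament protein, binds RAN and acts as a ligase for the modifier SUMO. It measured 6.56, 6.83, 6.64, 7.23 and 4.22 on the miR-1225-3p arrays and 4.89, 4.02, 4.91, 4.88 and 4.82 on the scrambled arrays. Replicates 1 to 4 were far above and replicate 5 was within the scrambled range. RANBP2 was higher by 1.59 on the log2 scale with a standard error of 0.502 (adjusted p = 0.0352), and by 0.60 (adjusted p = 0.0396) with normexp background correction. This rested on a dim probe, above background on 4 miR-1225-3p and 3 scrambled arrays. It was 2.10 (adjusted p = 0.000124) without miR-1225-3p replicate 5, and the call was lost without any other single array, with adjusted p up to 0.0823. RANBP2 has near-identical copies in the RGPD genes, which a probe may not separate, and this was not tested. NUP42, which works with the mRNA export factor GLE1, differed by 0.27 on the log2 scale (adjusted p = 0.107). On the nuclear side, the basket proteins NUP153 and NUP50 had 0.34 and 0.79 (adjusted p = 0.0967 and 0.0928), and both were called higher without miR-1225-3p replicate 5, at 0.44 and 1.09.

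**Figure D2:**
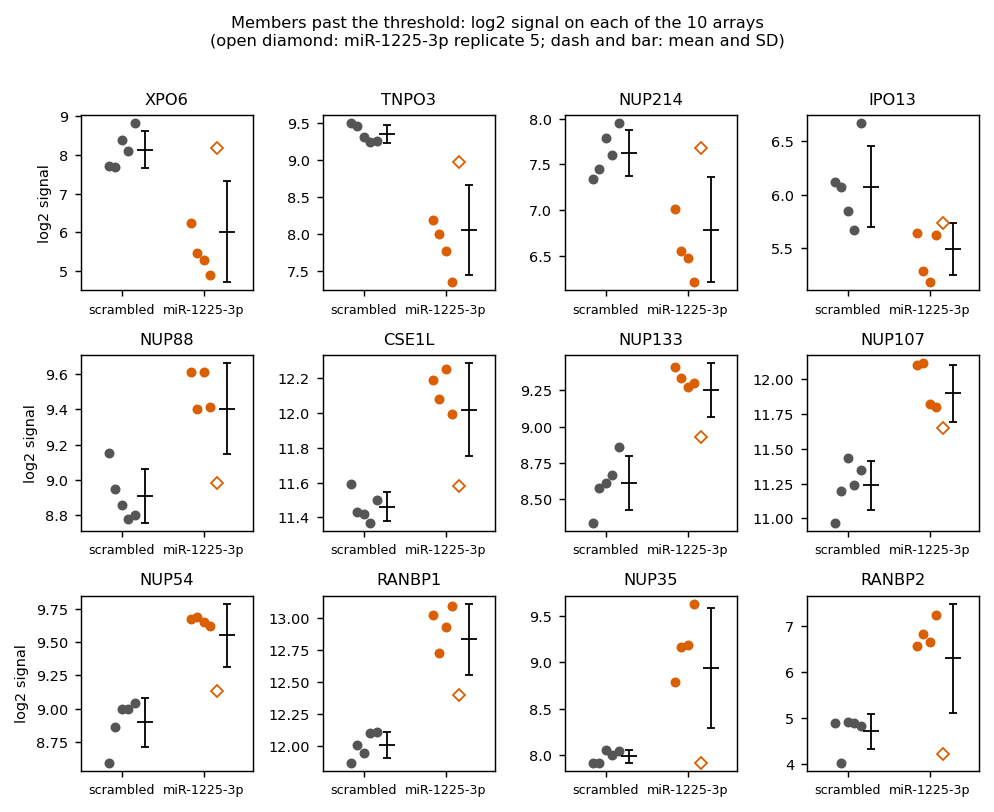
Log2 signal (y axis, a separate scale in each panel) of the 12 members past the threshold on each of the 10 arrays. Grey points are scrambled arrays, orange points are miR-1225-3p arrays with replicate 5 as an open diamond, and the dash and bar give mean and SD (n = 5). In all 12 panels the diamond is the miR-1225-3p array nearest to the scrambled arrays, and in 7 it lies within their range.

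Importin alpha proteins carry cargo with a classical nuclear localization signal and are themselves carried by importin beta. Of 6 tested, 0 passed in the limma fit over all 10 arrays described above or by the methods' t-test. When limma weighted the arrays 4 passed, a setting that called 66.3% of all genes. Other settings with calls included quantile normalization (1), the percentile subtracted (2), normexp (1) and the arrays without miR-1225-3p replicate 5 (3). These called 35.4%, 41.1%, 30.2% and 55.4% of all genes. In the fit described above 3 had an unadjusted p under 0.05: KPNA1 at 0.95, KPNA3 at -0.62 and KPNA5 at -0.93 (log2 fold changes). KPNA5 measured 6.03, 5.55, 4.62, 3.86 and 5.81 on the miR-1225-3p arrays, of which 3 were above background, and 6.05, 6.19, 6.05, 6.12 and 6.12 on the scrambled arrays. Every miR-1225-3p value was below every scrambled value, yet the spread over the miR-1225-3p arrays (SD 0.907) left the adjusted p at 0.0714. KPNA1 had an adjusted p of 0.0513 and was called higher without miR-1225-3p replicate 5, at 1.28. Its probe was dim, above background on 5 miR-1225-3p and 3 scrambled arrays. KPNA2, KPNA4 and KPNA6 lay between -0.22 and 0.23, and KPNA7, which had 2 probes above background on 1 array each, was not tested.

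Among importin beta, its relatives and the transportins, 2 of 10 were lower and 0 higher, 8 of the 10 log2 fold changes were below 0, and the median was -0.38. TNPO3, which imports splicing factors rich in serine and arginine, measured 8.19, 8.0, 7.77, 7.35 and 8.98 on the miR-1225-3p arrays and 9.5, 9.46, 9.31, 9.25 and 9.26 on the scrambled arrays. All miR-1225-3p arrays were below all scrambled arrays. The log2 fold change was -1.30 with a standard error of 0.261, a 2.46-fold lower signal (adjusted p = 0.0139, exact permutation p = 0.00794), and the call was kept whichever array was left out. IPO13, which both imports and exports cargo, measured 5.64, 5.29, 5.18, 5.62 and 5.74 against 6.12, 6.07, 5.85, 5.67 and 6.67. The groups were nearly adjacent, with replicate 5 of the miR-1225-3p arrays inside the scrambled range. IPO13 differed by -0.58 on the log2 scale with a standard error of 0.202 (adjusted p = 0.0472), a call that was kept without miR-1225-3p replicate 5 or scrambled replicate 4 and lost without any of the other 8 arrays, with adjusted p up to 0.108. With normexp IPO13 was at -0.19 and did not pass (adjusted p = 0.196).

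KPNB1, importin beta itself, measured 14.14, 14.35, 14.37, 14.63 and 13.78 on the miR-1225-3p arrays and 13.74, 13.82, 13.88, 13.86 and 13.86 on the scrambled arrays. Replicates 1 to 4 were above all scrambled arrays and replicate 5 was not, and the log2 fold change of 0.42 (standard error 0.159) did not pass (adjusted p = 0.0616, and 0.00433 without miR-1225-3p replicate 5). KPNB1 was called higher in 7 of 27 alternative settings. Among these were the percentile subtracted, at 1.04 (adjusted p = 0.0212), and quantile normalization, at 0.58 (adjusted p = 0.0396). TNPO1, which imports hnRNP proteins and stands on the same list of predicted targets as NUP160, measured 7.09, 6.29, 5.55, 4.10 and 6.83 against 7.36, 7.63, 7.37, 7.19 and 7.04. Its miR-1225-3p arrays were spread over a far wider range than the scrambled ones and reached into it only with replicate 1. For TNPO1 the log2 fold change was -1.35 with a standard error of 0.491 (adjusted p = 0.0549, and 0.0259 without miR-1225-3p replicate 5), and with normexp it was called lower, at -0.61 (adjusted p = 0.0337). TNPO2, IPO5 and IPO7, carriers of RNA-binding and ribosomal proteins, had log2 fold changes of -0.37, -0.38 and -0.81 (adjusted p = 0.0563, 0.0686 and 0.0578). IPO4, IPO8 and IPO11 had -0.32, -0.06 and 0.03, and IPO9 was above background on no array. The probe of IPO11 was above background on 2 miR-1225-3p and 3 scrambled arrays.

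Of the 5 exportins tested 1 was higher and 1 lower. XPO6, which exports actin bound to profilin, measured 6.24, 5.48, 5.28, 4.90 and 8.18 on the miR-1225-3p arrays, 3 of them above background, and 7.70, 7.68, 8.37, 8.09 and 8.81 on the scrambled arrays. Replicate 5 fell within the scrambled arrays and the other replicates lay more than 1 log2 unit below them. The log2 fold change was -2.11 with a standard error of 0.556, a 4.33-fold lower signal (adjusted p = 0.0217), and -2.64 without miR-1225-3p replicate 5. With normexp the log2 fold change was -1.05 (adjusted p = 0.0263). XPO6 lost its call when miR-1225-3p replicate 2 or 3 was left out (adjusted p = 0.0565 or 0.0547). CSE1L, the exportin that returns importin alpha to the cytoplasm, measured 12.19, 12.08, 12.25, 11.99 and 11.58 against 11.59, 11.43, 11.42, 11.37 and 11.50. It was higher by 0.55 (standard error 0.146, adjusted p = 0.0219), with replicate 5 just under the highest scrambled array, and without miR-1225-3p replicate 2 or 3 its adjusted p was 0.0569 or 0.056. XPO1, the general exportin for leucine-rich export signals, measured 10.29, 10.26, 10.05, 10.32 and 9.96 against 9.76, 9.90, 9.94, 10.06 and 10.08. These ranges overlapped and XPO1 did not pass (log2 fold change 0.23, standard error 0.127, adjusted p = 0.171, and 0.0612 without miR-1225-3p replicate 5). With the percentile subtracted XPO1 was called higher, at 0.63 (adjusted p = 0.031), and likewise with array weights, at 0.24 (adjusted p = 0.0328). XPO7 and XPO4 had -0.49 and -0.81 (adjusted p = 0.0574 and 0.353), XPO4 from a dim probe above background on 2 miR-1225-3p and 4 scrambled arrays.

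The last role is the RAN cycle. RAN measured 16.18, 16.23, 16.18, 16.12 and 16.21 on the miR-1225-3p arrays and 15.98, 15.99, 16.20, 16.21 and 16.31 on the scrambled arrays. The miR-1225-3p range lay within the wider scrambled range, and the log2 fold change was 0.04 with a standard error of 0.114 (adjusted p = 0.786). With the percentile subtracted RAN was called higher, at 0.76 (adjusted p = 0.0194), and when its probes were averaged its sign turned, at -0.17 (adjusted p = 0.468). RAN has pseudogene copies that a probe may not separate, which was not tested. RANBP1, which takes RAN off exported complexes, measured 13.02, 12.73, 12.93, 13.09 and 12.40 against 11.87, 12.01, 11.95, 12.10 and 12.11. All miR-1225-3p arrays were above all scrambled arrays. RANBP1 was higher by 0.83 on the log2 scale with a standard error of 0.152, a 1.78-fold higher signal (adjusted p = 0.0136, exact permutation p = 0.00794), with the smallest adjusted p of the members, and it was kept whichever array was left out. For the other called members the exact permutation p, unadjusted, was 0.00794 for NUP54 and 0.0159 for CSE1L, NUP88 and IPO13. It was 0.0317 for NUP214 and XPO6 and 0.0397 for NUP35 and RANBP2.

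For 15 members a pair of probes was kept, and these often disagreed. The signs of their log2 fold changes matched for 6 members and were opposite for 9, a match of 40.0% beside 62.2% of the 2129 genes with a RefSeq symbol and a pair of kept probes. By size the members' pairs were not further apart, with a median gap of 0.56 on the log2 scale beside 0.63 for those genes. In TNPO3 the disagreement was complete. The probe described above was lower, while the other one measured 6.11, 6.70, 6.42, 7.14 and 6.34 on the miR-1225-3p arrays and 5.61, 5.75, 6.04, 5.85 and 5.90 on the scrambled arrays, higher by 0.72 (standard error 0.195, adjusted p = 0.0239 over all probes) without overlap. IPO5 behaved in a like manner. Its other probe measured 9.03, 8.96, 8.94, 8.90 and 8.08 against 8.03, 7.89, 8.01, 7.94 and 8.0, higher by 0.81 (adjusted p = 0.0167), with the groups apart, whereas the probe that stands for the gene had -0.38. NUP98 showed the reverse, since a probe to another of its RefSeq transcripts measured 8.57, 8.16, 7.78, 7.83 and 8.52 against 8.99, 8.94, 8.88, 8.64 and 8.85, lower by -0.69 on the log2 scale (adjusted p = 0.0233) beside 0.33. Which probe of each pair follows the gene's transcripts was not tested.

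Some other pairs shared a sign. Both probes of NUP35 were higher (0.95 and 1.19) and both of CSE1L (0.55 and 0.46), each past the threshold over all probes. The pair of NUP62 was below 0, at -0.35 and -0.66, and the latter probe passed (adjusted p = 0.0158) with no overlap between the groups, from 10.63 to 11.20 against 11.48 to 11.65. The pair of IPO7 was at -0.81 and -2.24, the latter past the threshold (adjusted p = 0.0362) although just 2 of its 5 miR-1225-3p values were above background. The other probe of RANBP2 was at -0.44 (adjusted p = 0.518), above background on 1 miR-1225-3p and 3 scrambled arrays, beside 1.59 for the probe that represents the gene. The other probe of NUP133 was above background on 0 miR-1225-3p and 3 scrambled arrays and is given no fold. RAN had 0.04 and -0.39, KPNB1 0.42 and 0.09, NUP50 0.79 and 0.18, KPNA6 0.23 and -0.18, NUP42 0.27 and -0.30, and NUP43 0.19 and -0.29, and neither probe of these 6 pairs passed. With the kept probes of a gene averaged, TNPO3, RANBP2 and NUP133 no longer passed, at -0.29, 0.58 and 0.12 (adjusted p = 0.109, 0.103 and 0.69).

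**Figure D3:**
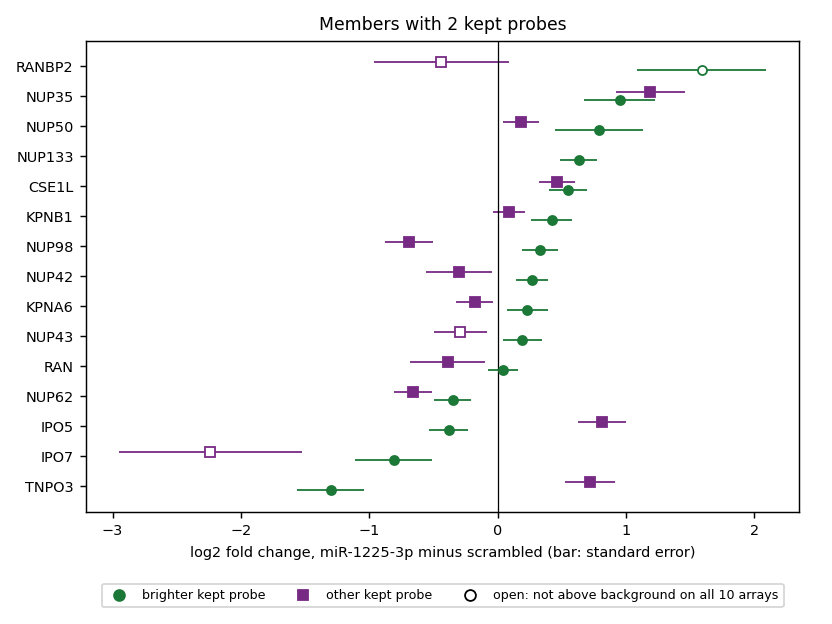
Log2 fold change (x axis, miR-1225-3p minus scrambled; bars are standard errors) of each kept probe of the 15 members with a pair of kept probes. Green circles are the probe with the higher mean signal, which represents the gene, purple squares are the other probe, and open symbols mark probes not above background on all 10 arrays; the other probe of NUP133 is left out. TNPO3 and IPO5 have their square to the right of 0 and their circle to the left, and NUP98 the opposite.

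The number of members called depended on which array was left out. Without miR-1225-3p replicate 5 it rose from 12 to 29, with 16 higher and 13 lower, which is 64.4% of the members beside 55.4% of all genes (26.3% higher and 29.0% lower). All 12 members were among these, and 17 were added. NUP37, NUP98, NUP42, NUP153, NUP50, KPNA1, KPNA6 and KPNB1 joined those that were higher, and NUP160, NUP188, NUP93, KPNA5, IPO5, IPO7, TNPO1, TNPO2 and XPO7 those that were lower. Among nucleoporins 11 were then higher and 4 lower, and among transport receptors 4 were higher and 9 lower. Without miR-1225-3p replicate 2 there were 4 higher and 1 lower, and likewise without miR-1225-3p replicate 3, where 12.5% and 13.3% of all genes were called. With a scrambled array left out, 7 to 9 members and 19.1% to 29.7% of all genes were called.

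**Figure D4:**
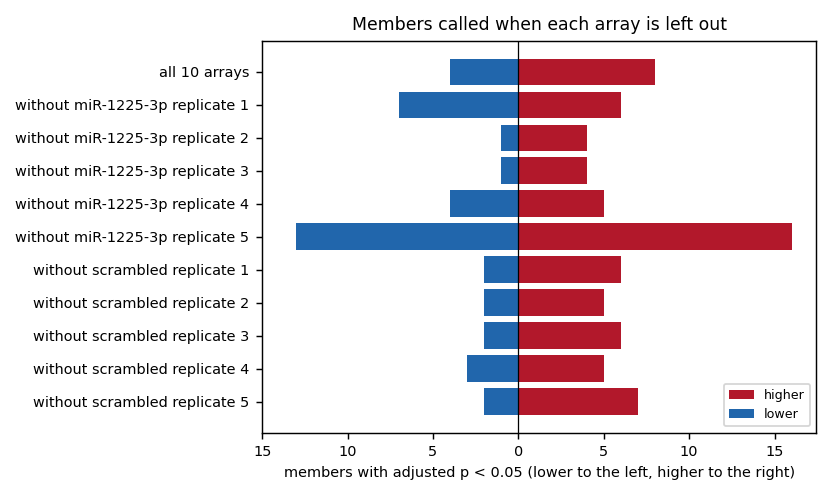
Number of members called at an adjusted p under 0.05 (x axis; higher to the right, lower to the left of 0) with all 10 arrays and with each array left out (y axis). The bars run from 4 higher and 1 lower without miR-1225-3p replicate 2 or 3 to 16 higher and 13 lower without miR-1225-3p replicate 5.

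The groups were mixed on 2 slides. Slide 1 held miR-1225-3p replicates 1 and 2 and scrambled replicates 1, 3 and 5, and slide 2 held the remaining 5 arrays. With the slide as a block 9 members were higher and 2 lower, beside 30.4% of all genes called, and NUP214 and IPO13 did not pass (adjusted p = 0.0532 and 0.0712). Within slide 1 there were 9 higher and 3 lower (25.8% of all genes called). On slide 2 alone, where miR-1225-3p replicate 5 lay, limma called 0 members and 0.00% of all genes, and 1 member had an unadjusted p under 0.05. All 12 called members kept their sign within each slide. XPO6 was at -1.77, TNPO3 at -1.32, RANBP1 at 0.75 and NUP107 at 0.54 within slide 2.

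Related genes outside the naming rule were counted from a list of 33 pore, RAN cycle, RNA export and cargo adaptor genes, of which 32 were tested. Of these, 7 were higher and 6 lower, which is 40.6% beside the 35.0% of all genes, and the median log2 fold change was 0.04. Without miR-1225-3p replicate 5 all 13 were kept, and 19 of the 32 were called, 10 higher and 9 lower, where 55.4% of all genes were called. In the pore group SEH1L, a Y complex subunit whose name falls outside the rule, was higher by 0.74 (adjusted p = 0.0301), and POM121, which crosses the membrane, was at -0.92 (adjusted p = 0.0292). Of the 7 genes listed under the RAN cycle 5 passed, and whether RANBP9 and RANBP10 take part in that cycle was not tested. NUTF2, which carries RAN back into the nucleus, measured 5.55, 5.25, 5.33, 5.37 and 10.66 on the miR-1225-3p arrays and 11.12, 10.66, 10.47, 10.49 and 10.28 on the scrambled arrays. Replicates 1 to 4 were far below all scrambled arrays and replicate 5 was within their range, and the log2 fold change was -4.17 with a standard error of 0.946 (adjusted p = 0.0157), and -5.20 (adjusted p = 2.59e-06) without miR-1225-3p replicate 5. RANGRF, a RAN release factor, and RANBP3, a cofactor of XPO1, were higher by 0.54 and 0.58 without overlap between groups, and RANBP9 and RANBP10 were lower, at -0.98 and -0.60.

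Among RNA export factors NXT2, a partner of the mRNA export receptors, was higher by 1.00 (standard error 0.176, adjusted p = 0.0136), with 7.94, 7.84, 7.80, 7.60 and 7.08 against 6.49, 6.51, 6.78, 6.75 and 6.74. The groups did not overlap. ALYREF, an adaptor that loads these receptors onto mRNA, was at -1.17 (adjusted p = 0.0203). The helicases DDX19A and DDX19B, which strip export factors from mRNA at the cytoplasmic face, were at 0.57 and -1.33 (adjusted p = 0.0478 and 0.0268), and as near-identical paralogs their probes may share signal, which was not tested. ENY2, a subunit of the export complex TREX-2, and HIKESHI, an import carrier of heat shock protein HSP70, were higher by 0.44 and 0.46. The guanine nucleotide exchange factor RCC1 and the GTPase activator RANGAP1, which keep RAN in its GTP form inside and its GDP form outside the nucleus, had log2 fold changes of -0.30 and 0.20 and did not pass.

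Promoter sequences were read for 41 of the 48 members from RefSeq (GRCh38.p14), from 250 bases before to 50 after the start of the gene. The letters CCGGAAG on either strand, which ETS family factors recognise, were found in 12 of these 41 (29.3%), beside 21.9% of the 9636 genes tested that have a promoter entry and 12.2% of all 27305. Among the members with an entry, 4 of 7 that were higher, 3 of 4 that were lower and 5 of 28 not called held it. The shares over all genes called and not called were not counted, and a link of the letters to the calls was not tested. The letters GCGCATGC, a core of the NRF1 motif, were in 4 members (9.76%, beside 6.16% of the genes tested), those of the CCAAT box in 21 (51.2%, beside 43.5%) and TTTCGCGC of E2F in 2 (4.88%, beside 1.20%). Such a match is a description of the letters and not of a bound site. The 5 windows below are a selection from called members with a match upstream of the start. They show that the same letters stand before genes that were higher (NUP35, NUP54, NUP88) and lower (NUP214, TNPO3). Each is printed on the gene's strand with the match in capitals, CTTCCGG being its reverse complement. They are NUP35 at chr2:183124336-183124362 on the plus strand, NUP54 at chr4:76148552-76148578 on the minus strand, NUP88 at chr17:5419745-5419771 on the minus strand, NUP214 at chr9:131125497-131125523 on the plus strand and TNPO3 at chr7:129055207-129055233 on the minus strand. The matches begin 97, 171, 99, 79 and 112 bases before the start. Upstream matches of called members that are not printed begin 10 bases before the start in NUP107, 110 in NUP54 and 14 in TNPO3.
NUP35: tagcgcaggtCCGGAAGttacgcaacc
NUP54: gtgaagcccaCCGGAAGtgagctggct
NUP88: gcctctcgagCTTCCGGgccgtctgct
NUP214: ggagcggcggCCGGAAGaacgcgcggc
TNPO3: ggcagggttaCTTCCGGgagggggcgg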

How the data were processed

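Total RNA of MEG-01 cells was hybridized to 10 Agilent 8-plex 60K human arrays in 1 Cy3 channel. Per the labels the scanner output is of Feature Extraction 10.7.3.1. The authors deposited this output, whose processed signals are intensities with background removed, and a table of normalized log2 values for 29271 probes. From the deposited intensities, control spots (4259) were left out, outlier-flagged spots were set missing, log2 values were normalized by cyclic loess (limma 3.58.1, R 4.3.3, 3 iterations) over 58717 spots, and repeat spots were averaged by probe. The filter kept 20648 of 42405 probes, those well above background (in at least 50% of a probe's spots) on 3 or more arrays of either group. RefSeq symbols matched 24910 probes. Each gene stands for its brightest kept probe by mean signal (17379 genes, 11995 with a RefSeq symbol). Groups were compared with limma (lmFit, eBayes) and Benjamini-Hochberg adjustment at 0.05, and single genes also by exact permutation. The script was tested on simulated data.

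Members, roles and lists were chosen with earlier results of these data known. Values on every array are given for the 12 called members with the largest change, for RAN, KPNB1, XPO1, CSE1L, NUP160 and TNPO1, and for others chosen after their values were seen (KPNA5, other probes, NUTF2, NXT2). Alternatives covered normalization, background correction (normexp, offset 50, on the median signal), the authors' values, filters, probe choice, tests, blocks and left-out arrays. Levels of some single cell type markers are not reported here.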

Additional observations from a re-analysis of the deposited data

Results flagged for a closer look

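For the 45 members tested, the 90 groups of 5 arrays were each searched for an array far from the other 4 (a gap to the nearest value over 0.71 of the group's range), and 5 were found, where chance gives about 1 in 20, or 4.5. On miR-1225-3p replicate 5, NUP43 (10.64), NUP54 (9.13), NUP153 (10.11) and RANBP2 (4.22) were far below the other miR-1225-3p arrays. On scrambled replicate 2, RANBP2 (4.02) was far below the other scrambled arrays.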

How the results depend on the processing

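The number of arrays and, for dim probes, the signal over background limit these results. Members called higher and lower were 8 and 4, and became 13 and 2 with quantile normalization, 20 and 4 with the 75th percentile subtracted, 0 and 1 without normalization, 9 and 9 with normexp, 8 and 10 with the authors' values, 5 and 2 without a filter on dim probes, 10 and 7 where the smallest p chose the probe, 9 and 7 with trend and robust limma, and 19 and 18 with array weights, the latter 4 settings calling 9.67%, 39.8%, 36.3% and 66.3% of all genes. By the methods' t-test 7 and 3 passed (26.9% of all genes), without RANBP2, NUP214 and IPO13 (adjusted p = 0.0632, 0.0562 and 0.0612). A slide block gave 9 and 2, and slide 2 alone 0 and 0. With a replicate block limma called 0 members and 0 genes (23 members and 7474 genes at an unadjusted p under 0.05). Deviations of same-numbered arrays correlated at -0.402 to 0.072. Such correlations cannot show whether same-numbered samples were handled together, and this was not tested. Leaving out 1 array gave 4 to 16 higher and 1 to 13 lower members, the lowest without miR-1225-3p replicate 2 or 3 and the highest without replicate 5. The related genes called, 13, became 1 without normalization, 6 without the filter, 23 with array weights, 0 with the replicate block, 0 within slide 2, and 4 to 19 with 1 array left out. The members' median of 0.03 became 0.41 with the percentile, 0.19 with probes above background on all 10 arrays, -0.06 with averaged probes, -0.12 where the smallest p chose the probe, and -0.02 to 0.04 with 1 array left out. RAN, not called, was called higher with the percentile (0.76, adjusted p = 0.0194) and was at 0.27 with quantile normalization and 0.34 with none, and its sign turned with averaged probes (-0.17), the smallest p (-0.39) and without scrambled replicate 1 (-0.0096) or 2 (-0.0065), and reached 0.076 at most with 1 array left out. The 12 called members kept their direction under the alternatives that could be run for each. The cause of these changes was not tested.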
